A study of Homo sapiens with 6 samples.

Results

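The genes described are 10 intermediate filament genes, taken by symbol from the 58735 genes of the deposited table: the mesenchymal filament gene VIM, the keratin genes KRT8, KRT18, KRT19, KRT10 and KRT1, the lamin genes LMNA, LMNB1 and LMNB2, and the neural stem cell filament gene NES. They were measured by RNA-seq in 6 libraries labelled CCRF-SB, the name of an established human B cell leukaemia line, which the labels also call lymphoblast-like and trace to peripheral blood. The B cell markers measured were low or absent, as given below, so the identity of the cells rests on the label. In the 3 siANXA1 libraries the cells had received a lentivirus carrying an RNA that silences ANXA1, the gene of the phospholipid-binding protein annexin A1, and their genotype is given as ANXA1 down-regulated. In the 3 siControl libraries they had received an empty lentiviral vector, and their genotype is given as WT. Every library is labelled day 5, cells of both groups were grown in the same medium, and the siANXA1 line was selected with puromycin as a stable line. No label says whether replicates were separate cultures, so each p below measures only the spread between these libraries, which may be technical.

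Intermediate filaments are rope-like polymers of coiled-coil proteins. Type III vimentin forms homopolymers in cells of mesenchymal origin, blood cells included, whereas a keratin filament needs a type I partner (KRT18, KRT19, KRT10) and a type II partner (KRT8, KRT1), and is typical of epithelia. The lamins, type V proteins, line the inner nuclear membrane: lamins B1 and B2 are found in nearly all cells and stay farnesylated, while lamins A and C, both made from LMNA, are more abundant in stiff, differentiated tissues and are low in many lymphocytes. Nestin, a type VI protein best known from neural progenitors, assembles together with vimentin.

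Each library held between 25657804 and 53661293 estimated counts, the fewest in siANXA1 replicate 2, and between 16.9% and 17.7% of them lay on rows with no gene. ANXA1 itself, the targeted gene, read 1606, 1723 and 1712 CPM (counts relative to library size, scaled by TMM) in siANXA1 replicates 1 to 3, against 3696, 3696 and 3756 CPM in siControl replicates 1 to 3. The fitted level in siANXA1 was 45.2% of siControl, with an adjusted p of 0.057 by edgeR and 2.5e-07 by DESeq2. On the first principal component of all genes except the 10, which took 39.9% of the variance, siANXA1 replicate 2 (0.71) lay with siControl replicates 1 and 2 (both 1.0), and siANXA1 replicates 1 and 3 (-0.90 and -0.95) lay with siControl replicate 3 (-0.88). The labelled cell type had little marker RNA: 20 B cell genes summed to 18.5 to 30.5 CPM in siANXA1 and 26.3 to 50.9 CPM in siControl, 14 of them averaged under 1 CPM, and 6 had no count in any library. Erythroid and megakaryocyte genes, 19 in all, summed to 5809.7 to 7126 CPM in siANXA1 and 2062 to 3505 CPM in siControl. Globin RNA was part of that sum: HBE1, the embryonic epsilon globin gene, read 3286, 2139.8 and 2973 CPM in siANXA1, against 4.74, 637 and 9.82 CPM in siControl (edgeR adjusted p = 0.64). TFRC, the transferrin receptor gene, was another large part, at 1146, 1813 and 1076 CPM in siANXA1, against 1293, 2116 and 1379 CPM in siControl. Of the 15 genes tested 13 were positive and 2, TFRC and the megakaryocyte gene ITGA2B, negative. HBB, the adult beta globin gene, and the megakaryocyte genes PPBP, GP9 and PF4 averaged under 1 CPM. A further 13 T and NK cell genes summed to at most 24.7 CPM in siANXA1 and 39.3 CPM in siControl, and 13 myeloid genes to at most 111 CPM in siANXA1 and 138 CPM in siControl. What part these differences between libraries have in the results below was not tested.

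None of the 10 genes differed between siANXA1 and siControl past the threshold, an adjusted p under 0.05. Of the 9 that had enough counts to be tested, 0 were called by edgeR's quasi-likelihood test, which called 0.0111% of 17947 genes, and 0 by DESeq2, which called 1.07% of the genes it gave an adjusted p. At an unadjusted edgeR p under 0.05 there were 3 of the 9 (VIM, KRT19 and KRT10), where 7.93% of all genes tested reached that level. LMNA was the 1 gene with every siANXA1 library below every siControl library, a pattern in 7.24% of all genes, and KRT10 the 1 gene with every siANXA1 library above, a pattern in 7.41%. The fitted change was negative for 6 of the 9 and positive for 3, with a median log2 fold change of -0.03, beside 0.0066 over all genes tested.

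**Figure D1:**
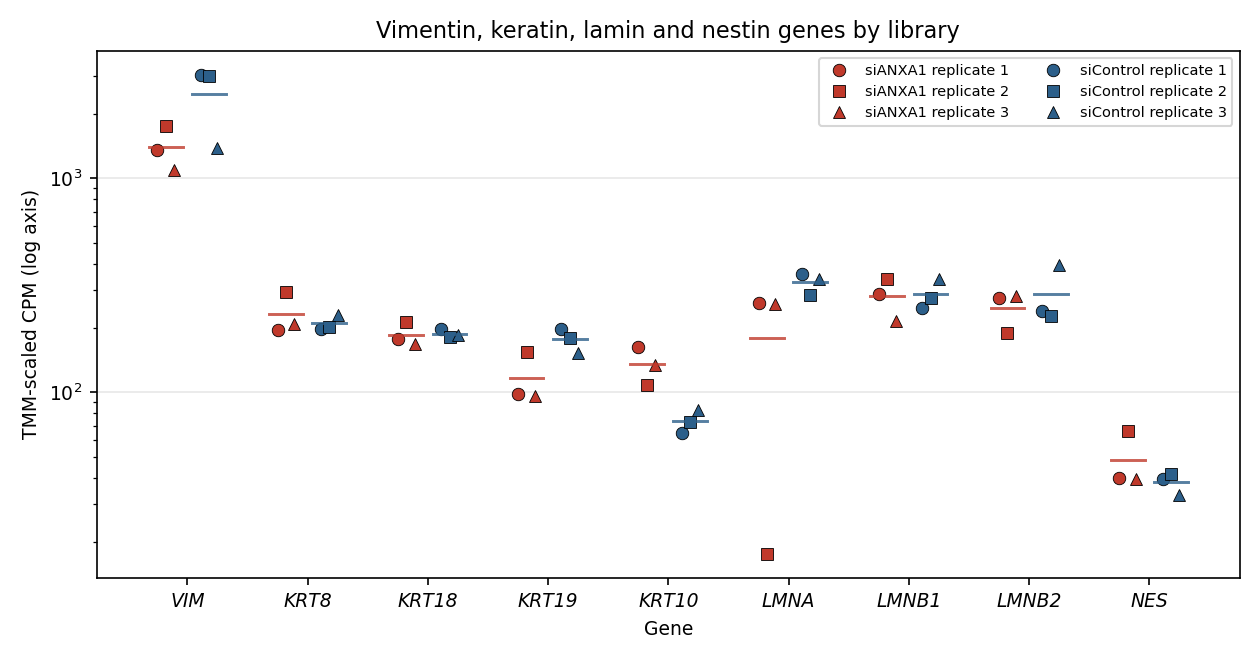
TMM-scaled CPM on a log axis for the 9 tested genes, 1 point per library, with siANXA1 left of siControl for each gene and a short line at each group's mean. KRT10 is the gene whose siANXA1 points all lie above siControl (108 CPM and more against at most 82.8 CPM), LMNA the one whose siANXA1 points all lie below, and the lone low LMNA point is siANXA1 replicate 2 at 17.6 CPM. KRT1, at 0 in 5 libraries, is not drawn.

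VIM, on the plus strand at chr10:17228259-17237593 (GRCh38, as are all positions here), was the most abundant of the 10 in every library. It read 1354, 1764 and 1095 CPM in siANXA1 replicates 1 to 3, against 3049.6, 3001 and 1393 CPM in siControl replicates 1 to 3. Replicates 1 and 2 of siControl stood well above the other 4 libraries, and siControl replicate 3 lay within the siANXA1 range, so the groups overlapped. In such bulk RNA fewer cells of a type and less RNA per cell cannot be told apart. Group means were 1404 ± 337 CPM in siANXA1 and 2481 ± 943 CPM in siControl (SD, n = 3 each). The log2 fold change was -0.82 ± 0.34 (SE), with an edgeR p of 0.047 and an adjusted p of 0.63, and DESeq2 gave an adjusted p of 0.45.

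The 3 libraries highest in VIM were also the 3 highest in a set of stress genes that differed within each group. A list of 20 genes of the amino acid stress response summed to 1266, 4564 and 1419 CPM in siANXA1 and to 7221, 6910.4 and 1576 CPM in siControl. DDIT4, an inhibitor of mTORC1 signalling and the most abundant gene of that list, read 109.8, 1435 and 109 CPM in siANXA1, against 2282, 2171 and 189 CPM in siControl. In VIM as in that list, siControl replicates 1 and 2 were highest, siANXA1 replicate 2 came next, and the 3 lowest libraries were the same. With the first principal component as a covariate the VIM log2 fold change was -0.39 ± 0.15 (SE; edgeR adjusted p = 0.37), and without siControl replicate 3 it was -1.11 ± 0.20 (SE; edgeR adjusted p = 0.14). Whether the stress response has a part in the VIM difference was not tested.

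**Figure D2:**
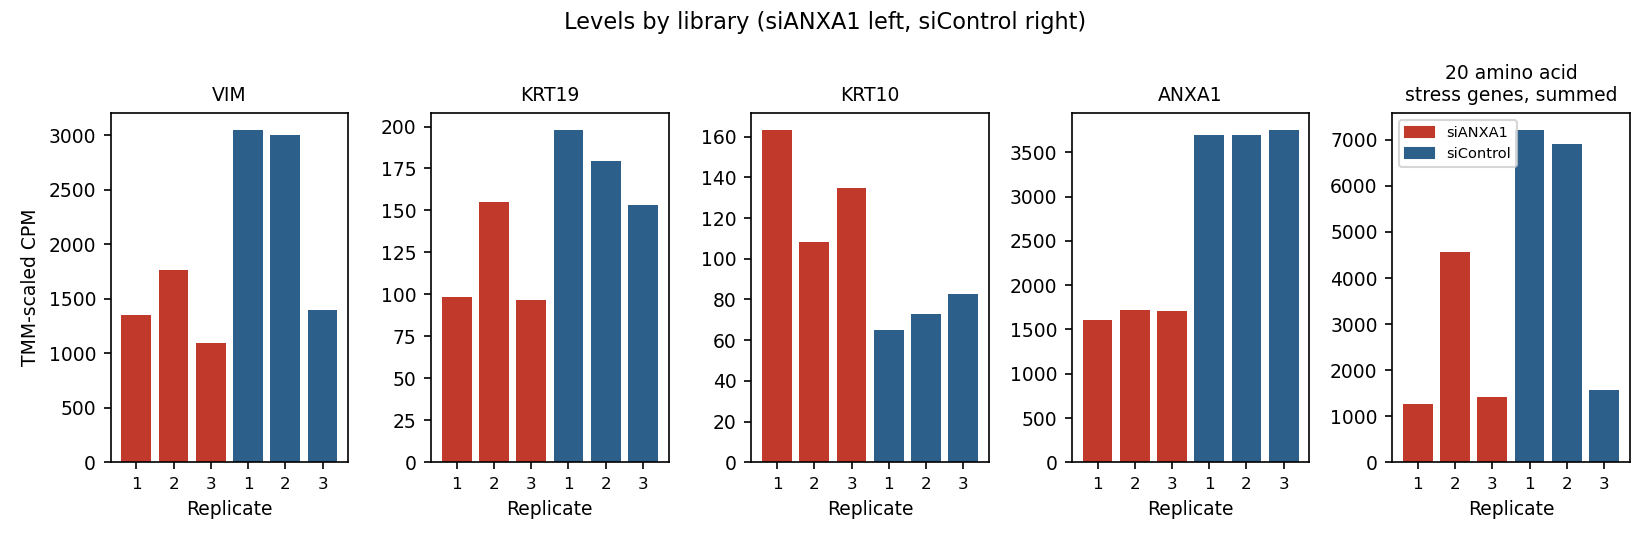
TMM-scaled CPM (bars, from 0) of VIM, KRT19, KRT10, ANXA1 and the sum of 20 amino acid stress genes in each library, siANXA1 replicates 1 to 3 in red and siControl replicates 1 to 3 in blue. VIM and the stress genes share their 3 highest libraries, siControl 1, siControl 2 and siANXA1 2, while ANXA1 is split by group alone, at 1606 to 1723 CPM in siANXA1 and 3696 to 3756 CPM in siControl.

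KRT8 and KRT18 are the type II and type I partners of simple epithelia and lie head to head on chromosome 12, KRT8 at chr12:52897187-52949954 on the minus strand and KRT18 at chr12:52948871-52952901 on the plus strand. KRT8 read 196, 293 and 209.7 CPM in siANXA1, against 198, 201 and 231 CPM in siControl. KRT18 read 177, 214 and 169 CPM in siANXA1, against 198, 182 and 186 CPM in siControl. In both genes siANXA1 replicate 2 was the highest of the 6 libraries and the groups overlapped.

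The fitted differences were small, at a log2 fold change of 0.15 ± 0.19 (SE) for KRT8 and -0.01 ± 0.14 (SE) for KRT18, with edgeR adjusted p-values of 0.82 and 0.98. KRT18 was the steadiest of the 9 tested genes, its highest library 1.27 times its lowest. Neither sign was stable: KRT8 was at -0.047 without siANXA1 replicate 2, and KRT18 turned positive in 5 of 17 alternative settings. Per length, the partners ran nearly equal. Their log2 TPM ratio, KRT8 over KRT18, was 0.01, 0.13 and 0.19 in siANXA1, against 0.03, 0.05 and -0.05 in siControl, a difference of 0.10 (exact permutation test, two-sided, p = 0.3, where 0.1 is the smallest p that 3 against 3 libraries allow).

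KRT19, a type I keratin of simple epithelia that lacks most of the tail domain, lies at chr17:41523617-41528308 on the minus strand. It read 98.5, 155 and 96.7 CPM in siANXA1, against 198, 179 and 153 CPM in siControl. Replicates 1 and 3 of siANXA1 were below every other library, and siANXA1 replicate 2 was just above siControl replicate 3, so the groups overlapped at that point only. The log2 fold change was -0.60 ± 0.23 (SE), with an unadjusted edgeR p of 0.038 and an adjusted p of 0.63. Without siANXA1 replicate 2, the library that made the overlap, the log2 fold change was -0.85 ± 0.17 (SE; edgeR adjusted p = 0.44). Without siANXA1 replicate 3 it was -0.48 ± 0.26 (SE; edgeR adjusted p = 0.97).

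KRT10, the type I keratin of the upper epidermis, lies at chr17:40818117-40822595 on the minus strand. It read 163, 108 and 134 CPM in siANXA1, against 64.8, 72.7 and 82.8 CPM in siControl. Every siANXA1 library was above every siControl library, and the lowest, siANXA1 replicate 2, was nearest to the controls. Means were 135 ± 27.7 CPM in siANXA1 and 73.4 ± 9.03 CPM in siControl (SD, n = 3 each), 1.84-fold apart. With a log2 fold change of 0.88 ± 0.20 (SE) and an edgeR p of 0.0039, KRT10 ranked 115 among all genes tested, and its adjusted p was 0.60 by edgeR and 0.098 by DESeq2. It stayed positive in each of 17 alternative settings, between 0.72 and 1.02, and passed the threshold in 0 of them.

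KRT1, the type II partner of KRT10 in the epidermis (chr12:52674736-52680407), had 0 counts in all 3 siANXA1 libraries and 2 counts in siControl, both in replicate 1. A count of 0 allows up to 3 counts per library, which is 0.069 to 0.137 CPM at these depths, for counting error alone. KRT10 was therefore measured in cells whose RNA held almost none of its usual partner. A further 26 keratin genes were read as a list: 25 of them averaged under 1 CPM and 10 had no count. KRT15, a type I keratin of basal epithelia, was the most abundant, at 0.437, 3.24 and 1.12 CPM in siANXA1, against 4.67, 3.79 and 2.16 CPM in siControl. Among 16 epithelial marker genes, which summed to 118 to 126 CPM in siANXA1 and 112 to 117 CPM in siControl, EPCAM, an epithelial adhesion molecule, held most of the counts at 101, 102 and 97.5 CPM in siANXA1, against 78.0, 85.8 and 90.9 CPM in siControl (edgeR adjusted p = 0.66).

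The farnesylated lamins end in a CaaX signal, a cysteine followed by 3 more residues, to which the lipid is attached. The last 30 coding bases of some annotated transcripts (GENCODE release 29, GRCh38, 5′ to 3′) are shown because they show which of these coding forms carry the signal. The cysteine codon is in capitals, and LMNB1-202 lacks it. LMNA-202, LMNA-203, LMNA-207 and LMNA-208, not shown, lack it as well. LMNA-207 (ENST00000368301, 572 codons) had 0 counts in every library. LMNA-208 (ENST00000448611) averaged 2.17 CPM over the 6 libraries, most of it from siControl replicate 2. It read 0, 0.320 and 0.710 CPM in siANXA1, against 0.838, 10.3 and 0.868 CPM in siControl.
LMNA-206 (ENST00000368300, lamin A): acccagagcccccagaacTGCagcatcatg
LMNA-205 (ENST00000368299): gcccagagcccccagaacTGCagcatcatg
LMNB1-201 (ENST00000261366, lamin B1): agagcatccaatagaagcTGTgcaattatg
LMNB1-202 (ENST00000395354): aggaaactcttagaaggcgaagaagagagg
LMNB2-201 (ENST00000325327, lamin B2): aggaccacctcaagaggcTGCtacgtgatg
LMNA-206 has 664 codons. LMNA-205 has 614 codons: its coding sequence is that of LMNA-206 without a run of 150 bases at chr1:156138608-156138757, or 50 codons. That shortened form, known as progerin, keeps the cysteine codon and lacks the site at which ZMPSTE24 removes the farnesylated end of lamin A.

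LMNA, on the plus strand at chr1:156082573-156140089, read 261, 17.6 and 258 CPM in siANXA1, against 359, 284 and 340.0 CPM in siControl. All 3 siANXA1 libraries lay below all 3 siControl libraries, but 1 of them decided the size: siANXA1 replicate 2 was far below the other 5. The log2 fold change was -0.87 ± 0.84 (SE; edgeR adjusted p = 0.78), and without siANXA1 replicate 2 it was -0.33 ± 0.16 (SE; edgeR adjusted p = 0.46). The highest library was 20.4 times the lowest, the widest range of the 9 tested genes. In siANXA1 replicate 2 LMNA was 1 of 4 genes, among 2232 with a mean of at least 100 CPM in the others, that lay 10-fold or more below each of the other libraries, and the other libraries had between 0 and 4 such genes. The rows with no gene carry no position, so whether they hold LMNA reads of that library was not tested.

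Transcript estimates placed LMNA in different forms in different libraries. LMNA-206 read 253, 2.47 and 246 CPM in siANXA1, against 338, 0.769 and 325 CPM in siControl. LMNA-205, the progerin form, had 0 counts in all 3 siANXA1 libraries and in siControl replicates 1 and 3, and read 255 CPM in siControl replicate 2, where it held 89.6% of the gene's counts. These are estimates that divide reads among overlapping transcripts, and whether the cells of siControl replicate 2 held that form was not tested.

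LMNB1, on the plus strand at chr5:126776623-126837020, read 288, 340.1 and 217 CPM in siANXA1, against 248, 277 and 340.4 CPM in siControl. The 2 groups had nearly the same range, and the fitted log2 difference was -0.03 ± 0.21 (SE; edgeR adjusted p = 0.97). LMNB2, on the minus strand at chr19:2427638-2456996, read 276, 190.2 and 281 CPM in siANXA1, against 239, 227 and 396 CPM in siControl. Its lowest library was siANXA1 replicate 2 and its highest siControl replicate 3, which gave -0.21 ± 0.27 on the log2 scale (SE; edgeR adjusted p = 0.83). With the first principal component as a covariate LMNB2 reached -0.46 ± 0.067 (SE), an unadjusted edgeR p of 0.00093 and an adjusted p of 0.23. In that fit 2404 of 17947 genes had an unadjusted p under 0.05, VIM, KRT19, KRT10 and NES among them. Without siControl replicate 3, and with no covariate, LMNB2 was at 0.092.

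The estimates left the coding transcript LMNB1-201 nearly empty in 5 libraries. It read 1.10, 327 and 1.23 CPM in siANXA1, against 1.51, 3.17 and 2.19 CPM in siControl. In those 5 libraries most of the gene's counts were assigned to ENST00000504788, annotated as a processed transcript, and ENST00000460265, annotated for nonsense-mediated decay. In siANXA1 replicate 2 these read 0 and 10.5 CPM. Annotated coding transcripts therefore were given 96.8% of LMNB1 counts in siANXA1 replicate 2 and between 0.888% and 1.90% in the other 5 libraries. The gene total, however, differed by less than 1.6-fold. These estimates, like those of LMNA, divide reads among overlapping transcripts, and whether LMNB1 RNA differed in form was not tested. The lamin B1 share of lamin TPM was 49.1%, 68.9% and 39.8% in siANXA1, against 40.3%, 38.2% and 44.2% in siControl, a difference of 11.7 percentage points (exact permutation test, two-sided, p = 0.3). That share was highest in siANXA1 replicate 2, the library with little LMNA.

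NES, on the minus strand at chr1:156668763-156677397 with 1 annotated transcript, read 40.0, 65.9 and 39.3 CPM in siANXA1, against 39.5, 41.6 and 33.2 CPM in siControl. Replicate 2 of siANXA1 stood above the other 5 libraries, which lay close together. The fitted log2 difference, 0.34 ± 0.25 (SE; edgeR adjusted p = 0.73), came to 0.061 without that library. Of the other 12 neural markers read, 10 averaged under 1 CPM, so nestin RNA was present without most of them.

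**Figure D3:**
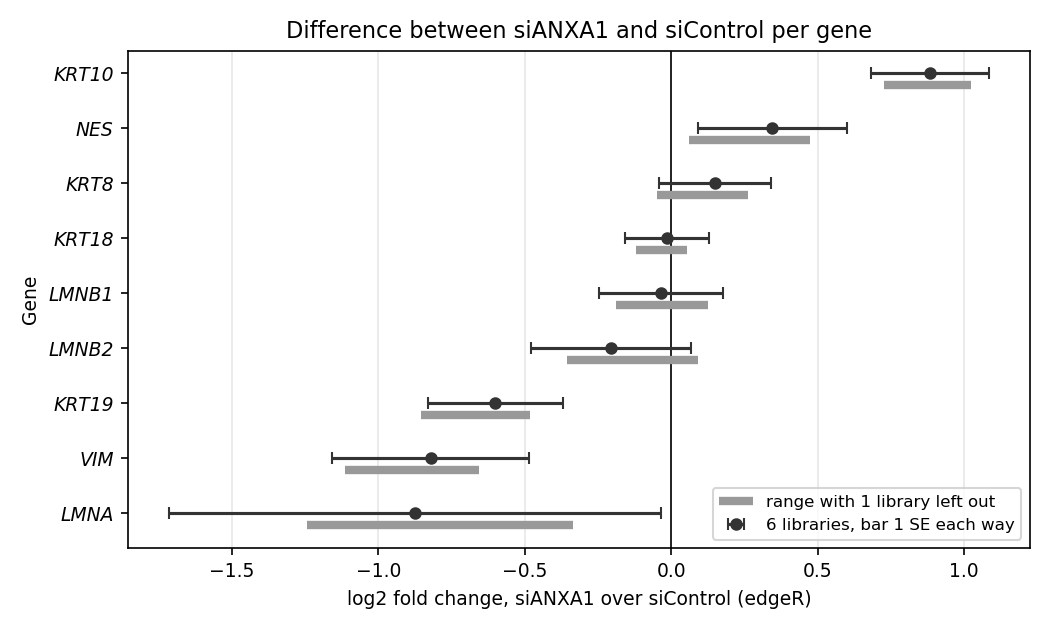
edgeR log2 fold change of siANXA1 over siControl for the 9 tested genes (points, with bars of 1 SE each way) and the range when each library is left out in turn (grey). KRT10 (0.88), NES (0.34), KRT19 (-0.60), VIM (-0.82) and LMNA (-0.87) keep their side of 0 in every such fit. LMNA has the widest range, -1.24 to -0.33.

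Per length, VIM was far above the rest. Over the 6 libraries it averaged 1833 TPM (transcript counts per length, scaled to the same sum in each library), rank 66 of all genes, followed by KRT8 at 219.7, LMNB1 at 218, KRT18 at 210.1, KRT19 at 194, LMNA at 160.1, LMNB2 at 103, KRT10 at 96.8 and NES at 13.9 TPM. VIM lay above KRT8, and KRT10 above NES, in all 6 libraries without overlap. Between KRT8 and KRT10 every neighbouring pair overlapped in range, so the order of neighbours is not fixed beyond the spread. Some genes further apart did not overlap: KRT8, LMNB1 and KRT18 stayed at 173 TPM or more, and LMNB2 and KRT10 at 152 TPM or less. Summed over the 10 genes, VIM took 51.9%, 59.8% and 48.5% of TPM in siANXA1, against 68.9%, 69.3% and 49.7% in siControl. The difference of -9.25 percentage points did not exceed the spread between libraries (exact permutation test, two-sided, p = 0.3). TPM rests on the transcript lengths to which counts were assigned, so the shifts among LMNA, LMNB1 and KRT8 transcripts enter these values.

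**Figure D4:**
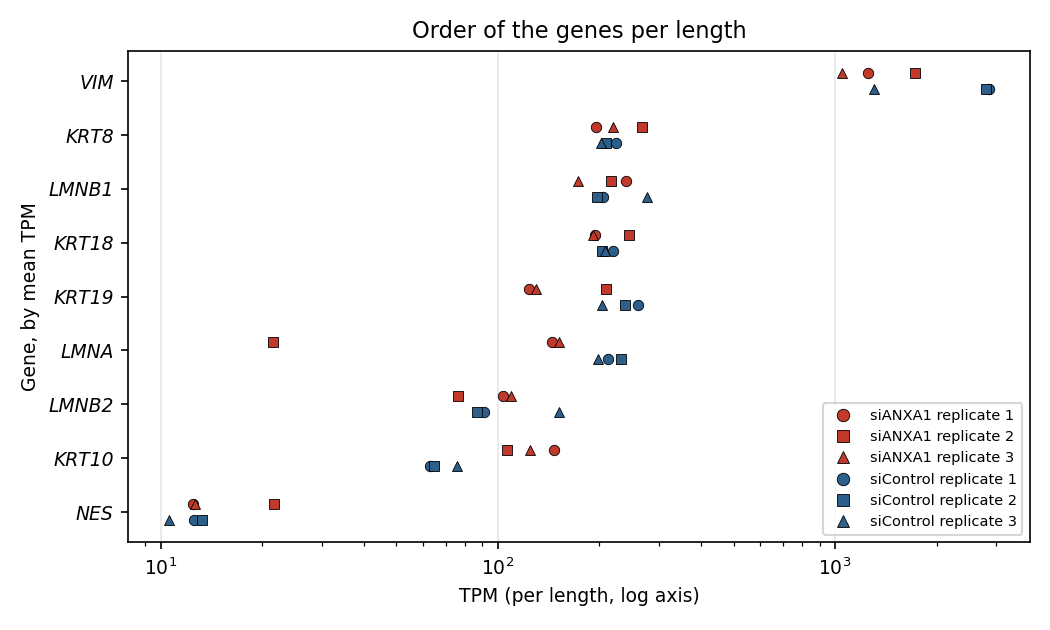
TPM on a log axis for 9 genes in order of mean TPM, 1 point per library, siANXA1 above siControl within each gene. VIM stands apart at 1047 to 2856 TPM and NES at 10.6 to 21.6 TPM, while the 7 genes between them overlap with their neighbours.

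Of 85 annotated transcripts of the 10 genes, 41 averaged at least 1 CPM and 50 were tested. None was called by edgeR, which called 0.0017% of 58702 transcripts, and 4 reached an unadjusted p under 0.05, where 4.69% of all transcripts did. Those 4 were the main transcripts of KRT10 (ENST00000269576, log2 fold change 0.80) and KRT19 (ENST00000361566, -0.67) and a minor transcript each of LMNA (ENST00000496738, -0.83) and LMNB2 (ENST00000532465, 3.65, at most 0.276 CPM in any library).

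Transcript estimates placed KRT8 mostly on a coding form in some libraries and on a retained-intron form in others. As for LMNA, such estimates divide reads among overlapping transcripts, and whether the RNA itself differed in form was not tested. The coding transcript ENST00000546897 read 126, 0 and 155 CPM in siANXA1, against 134, 0 and 0 CPM in siControl, and the retained-intron transcript ENST00000550170 read 10.8, 220.1 and 7.83 CPM in siANXA1, against 6.70, 84.6 and 149.9 CPM in siControl. Coding transcripts held 83.9%, 17.5% and 87.3% of KRT8 counts in siANXA1, against 87.8%, 50.0% and 27.8% in siControl. Libraries of the same group thus lay far apart, and the groups overlapped. The libraries with the lowest coding shares, siANXA1 replicate 2 and siControl replicate 3, also had the highest KRT8 totals, at 293 and 231 CPM. KRT18 had the coding transcript ENST00000550600 at 50.2%, 29.1% and 47.7% of its counts in siANXA1, against 29.2%, 33.9% and 30.6% in siControl, and the coding transcript ENST00000388835 at 34.7%, 54.8% and 43.6% in siANXA1, against 47.1%, 43.8% and 49.9% in siControl. Its leading transcript therefore differed between siANXA1 replicate 2 and the other siANXA1 libraries. VIM kept 1 leading transcript in all 6 libraries. The main VIM transcript ENST00000224237 read 1148, 1229 and 745 CPM in siANXA1, against 2632, 2523 and 867.9 CPM in siControl, and transcripts annotated for nonsense-mediated decay held 12.0%, 21.2% and 24.7% of VIM counts in siANXA1, against 11.7%, 13.8% and 28.0% in siControl. Retained-intron transcripts held 9.32%, 12.0% and 7.94% of KRT18 counts in siANXA1, against 17.96%, 14.6% and 11.9% in siControl, which overlapped narrowly (exact permutation test, two-sided, p = 0.2).

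**Figure D5:**
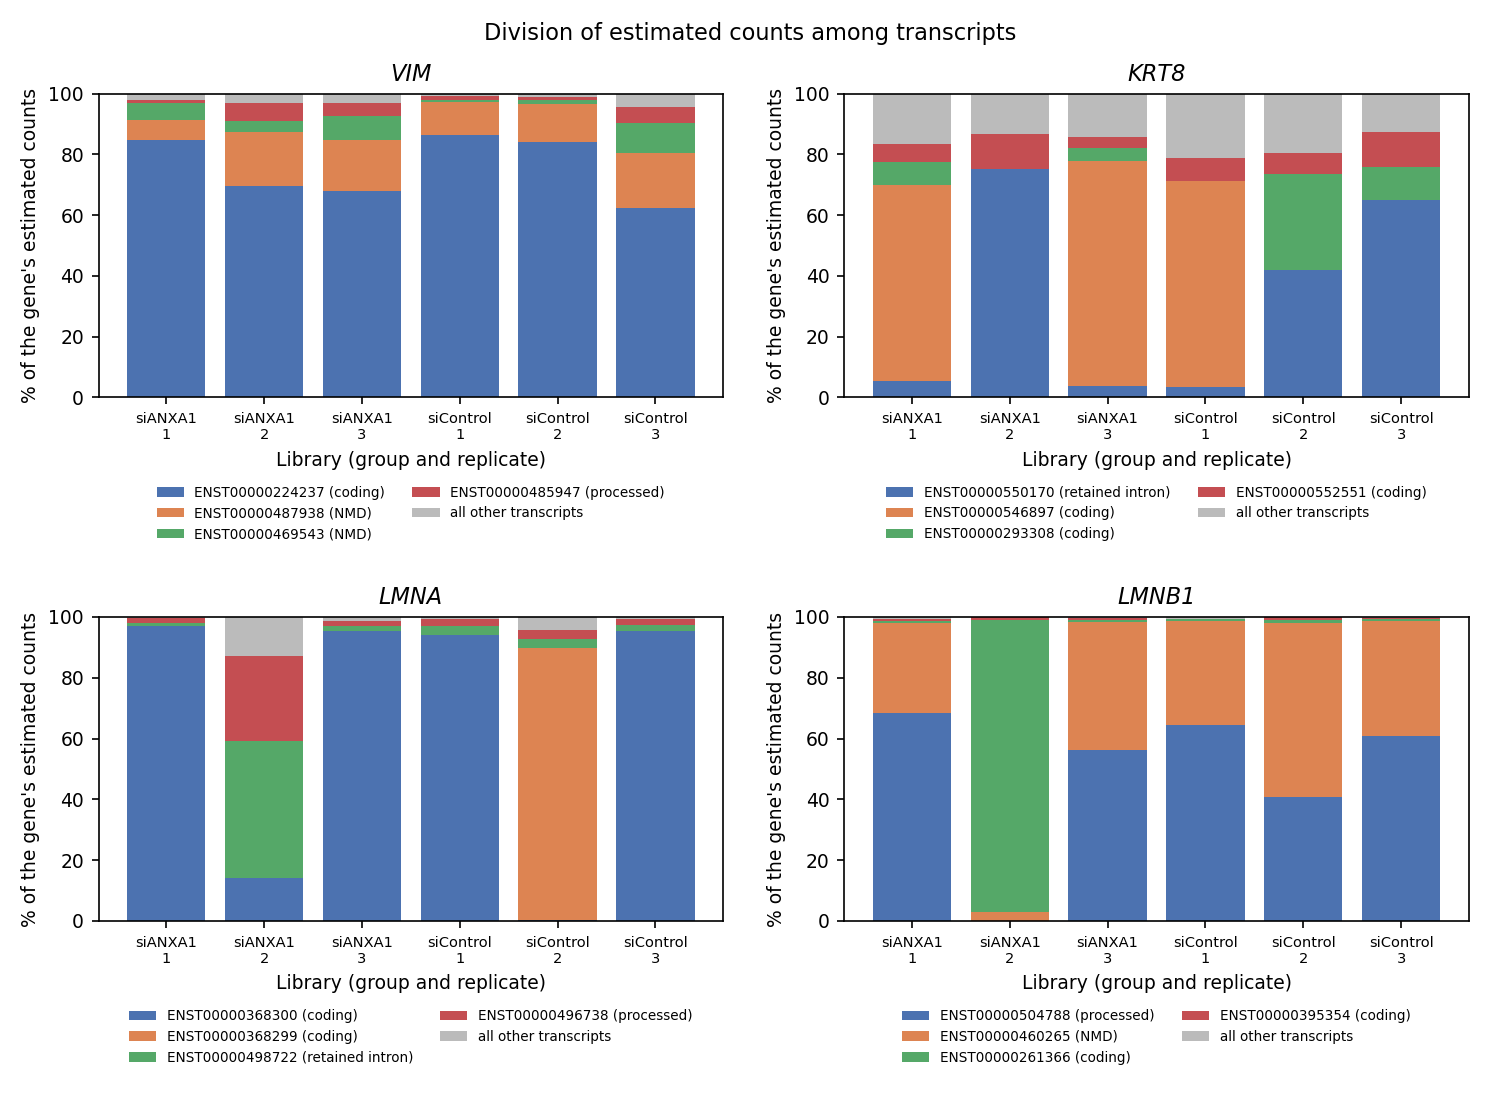
Share of each gene's estimated counts (stacked bars, 100% per library) held by its 4 most abundant transcripts in each library, siANXA1 left and siControl right. VIM keeps 1 main transcript throughout, whereas KRT8, LMNA and LMNB1 change theirs between libraries of the same group, as in siANXA1 replicate 2, where LMNB1-201 (ENST00000261366) holds 96.1% of LMNB1.

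Some of these counts may be shared with other genes. By symbol, KRT18 has 67 annotated pseudogenes and KRT8 has 50. Reads can be divided arbitrarily among copies of like sequence, and how alike these copies are was not tested. Pseudogene counts came to 4.42%, 4.10% and 4.83% of KRT18 counts in siANXA1, against 2.91%, 2.86% and 2.45% in siControl, groups that did not overlap (exact permutation test, two-sided, p = 0.1, the smallest possible). KRT18P5, the most abundant of them, read 4.99, 4.43 and 4.15 CPM in siANXA1, against 2.61, 1.69 and 2.49 CPM in siControl. For KRT8 the shares were 5.84%, 4.31% and 6.09% in siANXA1, against 5.51%, 5.48% and 4.86% in siControl. Adding these counts to the parent genes changed no call. KRT8 and KRT18 overlap by 1084 bases on opposite strands, VIM overlaps the antisense gene VIM-AS1 by 1727 bases, and KRT10 overlaps TMEM99 by 3490 bases. Whether strand entered the counting was not stated, so reads of such pairs cannot be told apart. VIM-AS1 read 1.54, 28.2 and 12.0 CPM in siANXA1, against 23.2, 4.74 and 15.03 CPM in siControl, far below VIM. TMEM99 was nearer to the level of KRT10. It read 32.0, 42.0 and 24.5 CPM in siANXA1, against 34.5, 30.9 and 30.1 CPM in siControl. KRT10 read 64.8 to 82.8 CPM in siControl and 108 to 163 CPM in siANXA1. What part TMEM99 reads have in the KRT10 counts was not tested.

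Genes that work with these filaments were read as lists, and edgeR called 0 genes in each of them. Of 10 other type III and IV filament genes 5 were tested, 1 positive and 4 negative, with a median log2 fold change of -0.81. NEFH, the heavy neurofilament subunit, read 128, 23.8 and 127 CPM in siANXA1, against 12.9, 11.4 and 126 CPM in siControl. It was high in the 3 libraries in which VIM was lowest. DES, the muscle filament protein desmin, read 5.64, 5.62 and 7.70 CPM in siANXA1, against 13.0, 9.82 and 10.5 CPM in siControl, without overlap (edgeR adjusted p = 0.60). Among 14 linker and desmosome plaque genes, 11 were tested, 4 positive and 7 negative, with a median of -0.03. JUP, the plaque protein plakoglobin, read 76.4, 199 and 70.8 CPM in siANXA1, against 286, 247 and 80.4 CPM in siControl, the order of libraries seen in VIM. PLEC, which encodes the cross-linker plectin, read 152 to 270.1 CPM in siANXA1 and 173 to 297 CPM in siControl, and MACF1, a linker of actin and microtubules, varied within both groups, from 222 to 426 CPM in siANXA1 and from 67.6 to 422 CPM in siControl.

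At the nuclear side, all 15 genes of the lamina and inner nuclear membrane were tested, 7 positive and 8 negative, with a median log2 fold change of -0.02. LBR, the lamin B receptor, read 576, 544 and 555 CPM in siANXA1, against 511, 571 and 703 CPM in siControl, and TMPO, which encodes the LAP2 proteins, lay between 314 and 379 CPM in siANXA1 and between 314 and 447 CPM in siControl. The LINC complex, which joins the lamina to the cytoskeleton, had 8 genes tested, 4 of each sign, with a median of 0.05. SUN1, its most abundant gene, read 141, 137 and 145 CPM in siANXA1, against 163, 169 and 142 CPM in siControl. FHOD1 read 80.2, 71.2 and 70.6 CPM in siANXA1, against 59.3, 50.4 and 74.9 CPM in siControl. Groups overlapped in both of these genes. The less abundant SUN2 read 27.0, 22.9 and 15.4 CPM in siANXA1, against 14.3, 15.1 and 10.0 CPM in siControl, without overlap (edgeR adjusted p = 0.63). The 9 genes of prenylation and CaaX processing had a median of 0.06. ZMPSTE24, the protease that matures lamin A, read 267, 135 and 270.0 CPM in siANXA1, against 109, 128 and 278 CPM in siControl, so that siANXA1 replicate 2 again lay with siControl replicates 1 and 2. Of 15 partners in nuclear assembly 12 were positive and 3 negative, with a median of 0.16. RAN, the GTPase of nuclear import, read 714, 1015 and 1036 CPM in siANXA1, against 232, 397 and 614 CPM in siControl, without overlap (edgeR adjusted p = 0.60), and NPM1, a nucleolar chaperone, read 896, 1756 and 792 CPM in siANXA1, against 1659, 1757 and 2545 CPM in siControl.

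Regulators of filaments were divided between both signs. Of 24 kinases, phosphatases and 14-3-3 genes 10 were positive and 14 negative, with a median of -0.05, and YWHAZ, a 14-3-3 protein that binds phosphorylated filament proteins, read 1210.0 to 1276 CPM in siANXA1 and 959 to 1287 CPM in siControl. Of 15 chaperone and turnover genes 9 were positive and 6 negative, with a median of 0.05. HSPA8, a constitutive chaperone, read 2236, 1467 and 1927 CPM in siANXA1, against 845, 870.5 and 2075 CPM in siControl. Among 24 transcription factors, 18 were tested, 8 positive and 10 negative, with a median of -0.06. STAT3, a transcription factor activated by cytokine signalling, read 244, 286 and 241 CPM in siANXA1, against 414, 408 and 307 CPM in siControl, without overlap (edgeR adjusted p = 0.60). ZEB2, a repressor of epithelial genes, read 129.8, 101 and 137 CPM in siANXA1, against 49.7, 132 and 166 CPM in siControl. Fibroblast and mesenchymal markers, 16 in number, summed to 153, 298 and 175 CPM in siANXA1, against 362, 366 and 132 CPM in siControl, most of it FN1, which encodes fibronectin.

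Across the 6 libraries, the protein-coding gene nearest to each filament gene was taken from 9850 genes, by the root mean square difference of log2 CPM after each gene's mean was removed. For VIM, whose own spread was 0.569 (SD of log2 CPM over the 6 libraries), the nearest was IRF2BP2, at 0.0811. It read 89.9, 108 and 79.2 CPM in siANXA1, against 189, 190.0 and 92.4 CPM in siControl. KRT18 was nearest to NDUFV1, at 0.0368, and KRT8 to CTDSPL, at 0.0584. KRT19 was nearest to PARP16, at 0.0449, and KRT10 to ANO6, at 0.0977. For LMNA the nearest was PGM2L1, at 0.172. It read 17.7, 0.822 and 16.9 CPM in siANXA1, against 22.5, 25.8 and 25.9 CPM in siControl, and was thus also low in siANXA1 replicate 2. LMNB1 was nearest to RASA3, at 0.0851, LMNB2 to EIF3J, at 0.0538, and NES to DYNLT3, at 0.0507. Of so many genes some lie this near in 6 libraries whatever the gene, so these are descriptions of the libraries.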

How the data were processed

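Per the labels' protocols, RNA of 3 siANXA1 and 3 siControl samples was extracted with Trizol and made into TruSeq libraries. Each row of the authors' table holds estimated counts of 1 transcript, as whole numbers and without normalization. The sources used here name no aligner, counting tool or strand setting. Per the submitters' processing notes the build was mm10, of mouse, although the rows carry human Ensembl transcripts at GRCh38 positions. Of 222615 rows 16014 had no gene and were left out (16.9% to 17.7% of counts per library).

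Counts were summed per gene and given to edgeR 4.0.16 under R 4.3.3 (TMM scaling, filterByExpr, robust quasi-likelihood fit with group as the single term), with Benjamini-Hochberg adjustment over all 17947 genes tested and two-sided tests at 0.05. Transcripts were tested alike. TPM was computed from the counts and the deposited transcript lengths. Single ratios had an exact permutation test (scipy 1.17.1). Floors of 0 counts cover counting error alone, whereas each SE and SD includes the spread between libraries. Alternatives were 2 other scalings, DESeq2 1.42.0, limma-voom 3.58.1, other filters, the most abundant transcript per gene, rows with no gene in library sizes, pseudogene counts added, a replicate block, the first principal component as covariate, and each library left out.

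The 10 genes and 18 gene lists (290 entries, all matched) were chosen with earlier results of these data known. Named were all 10 genes, ANXA1, the genes of each list past the threshold or else from its 3 most abundant, and nearest genes among those of at least 5 CPM. VIM-AS1, TMEM99, ITGA2B, HBB, PPBP, GP9, PF4 and the transcripts past an unadjusted p were named after their values were seen.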

Additional observations from a re-analysis of the deposited data

How the results depend on the processing

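The count of the 10 genes called by the test was 0 in the reported fit and in each of 16 other settings, and the count of their transcripts called was 0 in 8 others. The count of all genes called was 2 as reported, 162 by DESeq2 (72 higher, 90 lower), 1 with the most abundant transcript per gene, 0 with the replicate block, 5 with the first principal component as covariate, and 0 to 7 with 1 library left out, the most without siControl replicate 3. The replicate block rested on numbers alone: same-numbered libraries of the 2 groups had correlations of -0.11, 0.26 and 0.26 of their deviations, and replicate 1 did not correlate best with its own number. VIM, KRT19, KRT10, LMNA and NES kept their direction in each of 17 settings. With 1 library left out, KRT8 ranged from -0.047 (without siANXA1 replicate 2, its only turn of sign) to 0.26, KRT18 from -0.12 to 0.055, LMNB1 from -0.19 to 0.12 and LMNB2 from -0.36 to 0.092. LMNB2 turned positive without siControl replicate 3, LMNB1 without that library or siANXA1 replicate 3, and KRT18 without siANXA1 replicate 1, siANXA1 replicate 3 or siControl replicate 1. KRT18 also turned to 0.048 with the covariate and to 0.0089 with pseudogene counts added. The lamin B1 share turned to -17.7 percentage points with the most abundant transcript per gene, whose LMNB1 transcript had 0 counts in siANXA1 replicate 2. The KRT8 to KRT18 ratio gave no value in that setting, since the KRT8 transcript had 0 counts in 3 libraries. VIM had at least 38624 counts in each library, and KRT1 at most 2.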
